A study of Mus musculus with 12 samples.

Results

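The 45 genes described here encode the collagens, the glycoproteins and proteoglycans laid down with them, the enzymes that process them, and markers of the fibroblasts and mural cells that make them. The genes were listed by name and role, with earlier results of these data known, and their gene-level values were read in all 12 libraries. All 45 were among the 15459 genes that had at least 10 estimated reads in at least 3 libraries, out of 35944 genes matched.

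RNA-Seq was performed on tumours of 4T1, a mouse mammary carcinoma line, of which 100000 cells had been placed under the skin, on the right flank, in female BALB/c mice aged 6 to 8 weeks. From day 5, the mice received peritumoural injections, every 2 days and at 3 µg each, of extracellular vesicles (EVs) from MS-1 cells, a mouse endothelial line. The EVs had been electroporated with a miRNA mimic, and the tumours were taken on day 21. The mimic was cel-miR-67, a nematode miRNA, in the control group (ctrl), and miR-222-3p, miR-183-5p or miR-142-5p in the others, so ctrl mice also received endothelial EVs. There were 3 tumours per group, numbered 1 to 3 in the labels, and 1 library per tumour. The labels do not say whether tumours of a group shared a cage or a day, and the p-values measure the spread between these tumours.

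The extracellular matrix is the protein scaffold outside cells. Collagen chains wind into triple helices in the endoplasmic reticulum with the help of the chaperone Serpinh1, are secreted, trimmed, and crosslinked by the lysyl oxidases (Lox and the Loxl enzymes). Collagens I, III and V form the fibrils of connective tissue, collagen IV forms the mesh of basement membranes, and collagens XII, XIV and XVI sit on fibril surfaces. In solid tumours, much of the fibrillar matrix is made by cancer-associated fibroblasts, while carcinoma, endothelial and mural cells contribute basement membrane components.

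The injected molecules are short, and pairing is led by bases 2 to 8 of each (the seed). The mature sequences of RefSeq (GRCm38.p6) are shown 5′ to 3′ with the seed in capitals, because the search for pairing sites rests on it.
miR-142-5p: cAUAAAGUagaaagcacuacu
miR-183-5p: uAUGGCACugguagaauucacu
miR-222-3p: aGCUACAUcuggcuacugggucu
The 3 seeds differ from each other. The mature sequences lie on chromosome 11 (87756867 to 87756887, plus strand), chromosome 6 (30169711 to 30169732, minus strand) and chromosome X (19146901 to 19146923, minus strand).

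Annotated 3′ UTRs of the members were searched for the reverse complement of each seed, either alone (7mer-m8) or followed by A (8mer). A match to miR-142-5p was found in 7 of 45 members (15.6%, against 17.0% of the 14600 tested genes with an annotated 3′ UTR). These were Acta2, Col11a1, Lox, Loxl3, Pdgfra, Thbs1 and Vcan. A match to miR-222-3p was found in 3 members (6.67%, against 11.71%), namely Loxl3, Pdgfra and Vcan. Col6a3 was the 1 member with a match to miR-183-5p (2.22%, against 11.3%). Apart from Col11a1 and Col6a3, no collagen among the members held a match, and a match is a description of letters and not a shown target. The longer matches in Acta2 and Vcan and 3 others are shown on the transcribed strand, with the pairing bases in capitals.
Acta2, miR-142-5p, chr19:34241217-34241246, minus strand: gtgactattttACTTTATAcatacaggtga
Vcan, miR-222-3p, chr13:89657346-89657375, minus strand: tgttttcttccATGTAGCAtctgcatacca
Thbs1, miR-142-5p, chr2:118125871-118125900, plus strand: agtgcgcctttACTTTATggttagaaaggc
Pdgfra, miR-222-3p, chr5:75183330-75183359, plus strand: cagggttgctgATGTAGCcctatggtatat
Col6a3, miR-183-5p, chr1:90766860-90766879, minus strand: gtatattgaatGTGCCATga

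RefSeq start-site windows (GRCm38.p6) were found for 27 of the 45 members, 5 of which (Col18a1, Col6a2, Fbln1, Postn and Tnc) had 2. Thus 32 windows of the members were set against 32851 windows in all, and the 250 bases before each start were searched on both strands. Unlike in the seed search, the full set was not limited to genes tested here, whereas the members had all passed the count filter. The GC box, with the letters GGGCGG, was in 59.4% of the members' windows and 32.7% of all windows, and the core that Smad proteins bind, spelled CAGAC, in 56.3% and 42.2%. The TATA box, searched as TATAAA, was in 15.6% and 12.4%, the box spelled CCAAT in 28.1% and 33.8%, and the CArG box of serum response factor in 0% and 1.47%. The 18 members without a window, among them Tagln, Ctgf, Col1a1, Fn1 and Lox, were not searched, so these shares do not cover them. Postn and Col3a1 were both lowest in miR-142-5p tumour 2 and highest in miR-222-3p tumour 3. So were Bgn and Col11a1, whose windows held GC boxes and no TATA box, so the TATA boxes seen below are not particular to this pattern. As examples, the 150 bases before the start of Postn (the downstream one of its 2) and Col3a1 are shown with these letters, read on either strand, in capitals.
Postn, chr3:54360957-54361106, plus strand: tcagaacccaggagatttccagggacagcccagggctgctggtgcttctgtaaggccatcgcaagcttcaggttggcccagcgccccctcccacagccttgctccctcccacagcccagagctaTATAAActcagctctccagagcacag
Col3a1, chr1:45311388-45311537, plus strand: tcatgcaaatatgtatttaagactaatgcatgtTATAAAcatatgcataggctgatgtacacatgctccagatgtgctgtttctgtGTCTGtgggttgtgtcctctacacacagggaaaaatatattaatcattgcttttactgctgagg

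Several libraries stood apart. Gm28661, a chromosome 1 pseudogene close to the mitochondrial gene mt-Co2, took at most 0.324% of the reads of both genes in miR-183-5p tumour 3 and in the 3 miR-222-3p tumours, and between 7.13% and 41.8% in the other 8. The low share thus covered the whole miR-222-3p group and no ctrl or miR-142-5p tumour. Whether what set these libraries apart bears on the contrasts of miR-222-3p was not tested. In miR-183-5p tumour 3, the 8 skeletal muscle markers summed to 431 TPM, against 14.4 to 25.9 TPM in the other 11. Depth was similar throughout, with 20285968 to 27021401 estimated reads per library. Of the 10 fibroblast markers, 9 passed the count filter (Clec3b did not), and all 8 carcinoma markers did, Epcam and Krt8 among them. In these bulk samples, fewer cells of a type and less RNA per cell cannot be told apart.

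Levels are given in TPM, which is per unit of transcript length, so that genes can be compared. The members together held between 5746 TPM (miR-142-5p tumour 2) and 9072 TPM (miR-222-3p tumour 3) of a library. By their median over the 12 tumours, the highest were Fn1 (fibronectin, 2222 TPM), Sparc (a collagen-binding glycoprotein, 784 TPM), Serpinh1 (396 TPM), Pcolce (which speeds removal of the procollagen tail, 373 TPM) and Fbln2 (fibulin 2, 301 TPM). The lowest were Col11a1 (0.319 TPM), Fbln1 (2.52 TPM), Vcan (versican, 5.00 TPM), Col14a1 (5.71 TPM) and Fap (a protease of activated fibroblasts, 5.94 TPM). The place of Fn1 depends on its transcripts, since a transcript annotated as a retained intron held a median of 50.04% of its TPM. In protein-coding transcripts alone, Fn1 had a median of 636 TPM (range 246 to 1441) and came after Sparc (781 TPM). Non-coding transcripts were also the most abundant for Fbln2, Col6a3, Col16a1 and Fap, and protein-coding transcripts held a median of 41.1%, 42.6%, 33.9% and 49.4% of the TPM of these genes.

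The members varied more between tumours than most genes did. Over the 12 tumours, the SD of log2 TPM had a median of 0.52 for the 44 members with a median of at least 1 TPM, against 0.21 for 13087 genes. It was above the median of all genes for 40 of these 44. Tumours of the same group differed as widely, since the median SD within groups was 0.54 for the members and 0.22 for all genes. The widest spreads were those of Lox (0.99), Acta2 (smooth muscle actin, 0.91) and Fbln1 (0.91). The narrowest were those of Pcolce (0.10), Col16a1 (0.12) and Serpinh1 (0.17). For Col16a1 this counts all transcripts, and its protein-coding ones ranged from 36.1 to 69.4 TPM. Serpinh1 and Pcolce, which serve the making of fibrillar collagens, had a narrower spread than each of the 7 fibrillar collagens.

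The tumours with high or low levels were largely the same for most members. miR-142-5p tumour 2 held the lowest of the 12 values for 27 of 45 members, and ctrl tumour 1 for 8. At the other end, miR-222-3p tumour 3 held the highest value for 24 members, miR-183-5p tumour 3 for 7 and ctrl tumour 3 for 5. Each member's TPM was divided by its own geometric mean over the 12 tumours. The median log2 ratio over the members was -0.43, 0.33 and -0.38 in ctrl, and 0.14, -0.87 and -0.14 with miR-142-5p. It was 0.29, 0.23 and 0.46 with miR-183-5p, and -0.49, 0.12 and 0.67 with miR-222-3p. The 3 miR-183-5p tumours lay close together, while each of the other groups held tumours with both high and low levels.

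**Figure D1:**
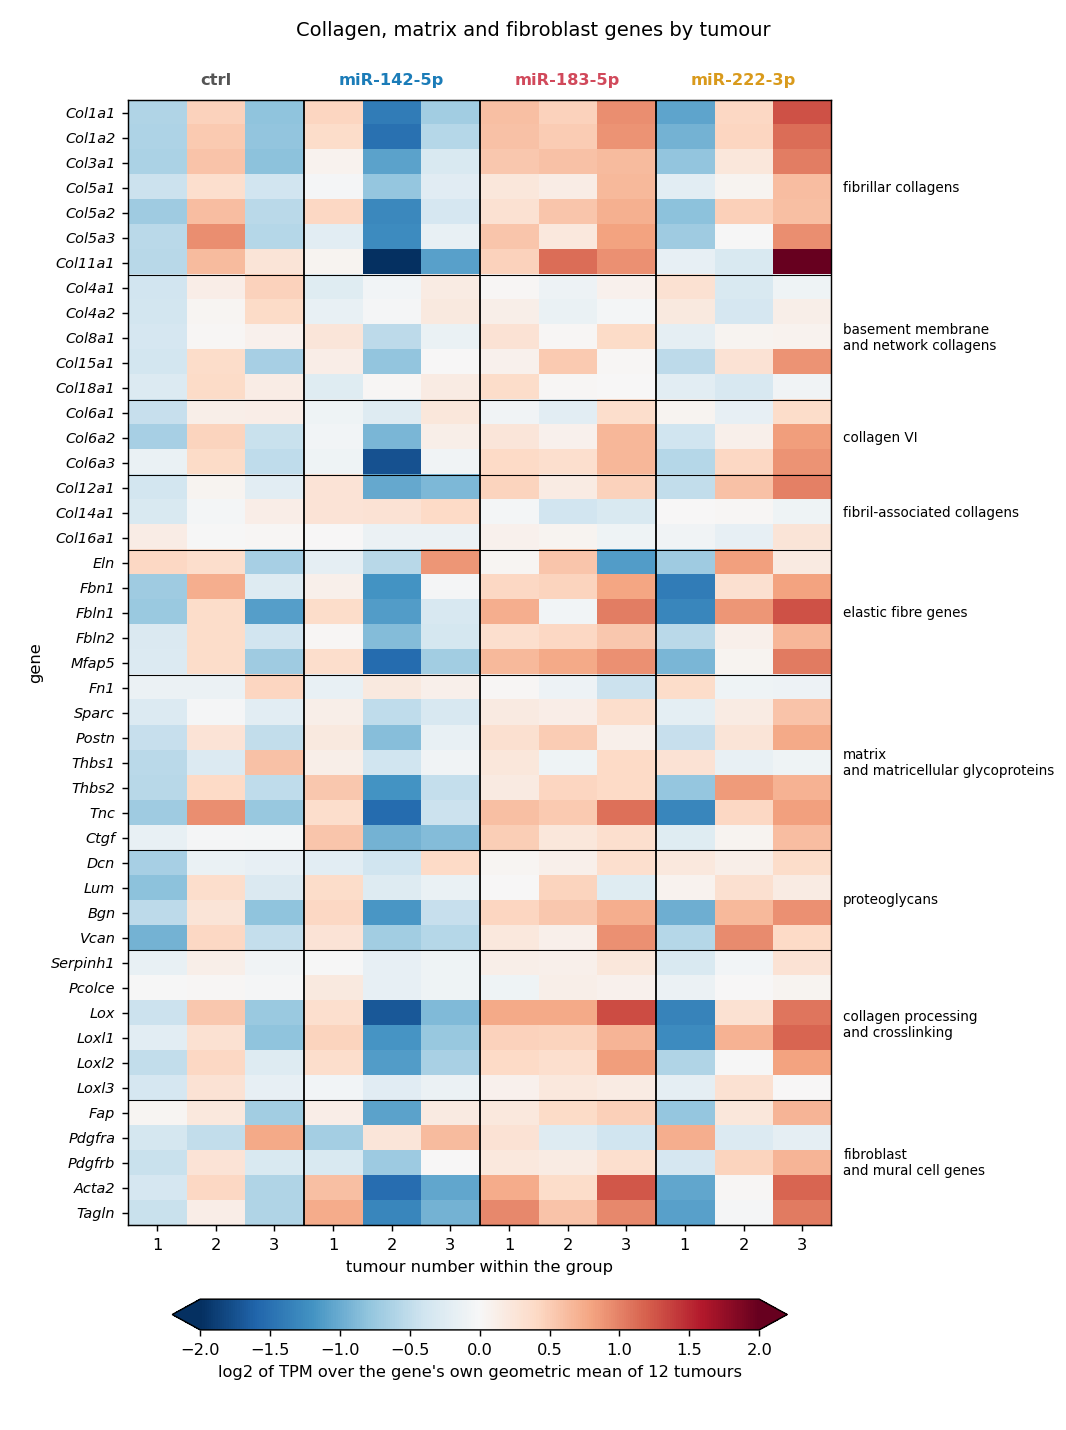
Level of the 45 genes (rows, grouped by role) in the 12 tumours (columns, 3 per group), as the log2 of TPM over the gene's own geometric mean; red is above and blue below that mean, and colours saturate at 2. miR-142-5p tumour 2 is blue and miR-222-3p tumour 3 red for most rows, while Col4a1, Fn1, Pdgfra and Col14a1 follow other patterns.

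Among fibrillar collagens, the chains of collagen I moved over a 6-fold range. Col1a1, on chromosome 11 (94936224 to 94953042, GRCm38), measured 117, 245 and 102 TPM in ctrl, 240.2, 67.9 and 110.3 TPM with miR-142-5p, 272, 246 and 342 TPM with miR-183-5p and 86.4, 238 and 432 TPM with miR-222-3p. The miR-183-5p tumours were all above the ctrl tumours, but ctrl tumour 2 differed from the lowest of them by less than 1 TPM. Col1a2, the partner chain on chromosome 6 (4504814 to 4541544), measured 129, 285 and 115 TPM in ctrl, 255, 70.8 and 134 TPM with miR-142-5p, 299, 282 and 370.0 TPM with miR-183-5p and 103, 267 and 432 TPM with miR-222-3p. For Col1a2, ctrl tumour 2 was above miR-183-5p tumour 2 in TPM. The ratio of Col1a1 to Col1a2 stayed between 0.826 and 1.0003 in the 12 tumours, although each chain alone ranged 6.36-fold and 6.10-fold.

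Col3a1, on chromosome 1 (45311538 to 45349706), encodes the fibril collagen of soft tissues. Its level was 146, 336 and 128 TPM in ctrl, 239, 108 and 183 TPM with miR-142-5p, 329.6, 341 and 352 TPM with miR-183-5p and 131, 265 and 462 TPM with miR-222-3p. Within the miR-183-5p group the values were nearly equal, and in the other groups the highest tumour exceeded the lowest by more than the whole miR-183-5p range. Of the collagen V chains, which set fibril width, Col5a1 ranged from 29.8 to 79.9 TPM, Col5a2 from 25.9 to 104 TPM and Col5a3 from 6.72 to 30.8 TPM. All 3 were lowest in miR-142-5p tumour 2. The 7 fibrillar collagens together summed to 481, 1058 and 439 TPM in ctrl, 882, 309 and 535 TPM with miR-142-5p, 1063, 1038 and 1277 TPM with miR-183-5p and 410.1, 927 and 1531 TPM with miR-222-3p.

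Collagen IV, of basement membranes, followed another pattern. Col4a1 measured 187, 266 and 335 TPM in ctrl, 205, 234 and 273 TPM with miR-142-5p, 248, 226 and 258 TPM with miR-183-5p and 301, 198 and 229.8 TPM with miR-222-3p. The highest values were those of ctrl tumour 3 and miR-222-3p tumour 1, both low for collagen I. Col4a1 (chromosome 8, 11198423 to 11312826, minus strand) and Col4a2 (11312805 to 11449287, plus strand) start head to head, and their annotated ends overlap. Col4a2 ranged from 86.2 to 146 TPM, and the ratio of Col4a1 to Col4a2 stayed between 1.91 and 2.38. By contrast, the ratio of Col4a1 to Col1a1 ran from 0.532 in miR-222-3p tumour 3 to 3.48 in miR-222-3p tumour 1, which are tumours of the same group. These pairs were chosen after the values had been seen. Col18a1, a basement membrane collagen and the source of endostatin, measured 109, 171 and 146 TPM in ctrl, 110.2, 133 and 146 TPM with miR-142-5p, 168, 132 and 132 TPM with miR-183-5p and 113, 105 and 124 TPM with miR-222-3p. Col8a1, a short-chain network collagen, ranged from 60.95 to 114 TPM, and Col15a1 from 25.3 to 81.5 TPM. Both were lowest in miR-142-5p tumour 2, as collagen I was. Col8a1 was highest in miR-183-5p tumour 3 and Col15a1 in miR-222-3p tumour 3.

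**Figure D2:**
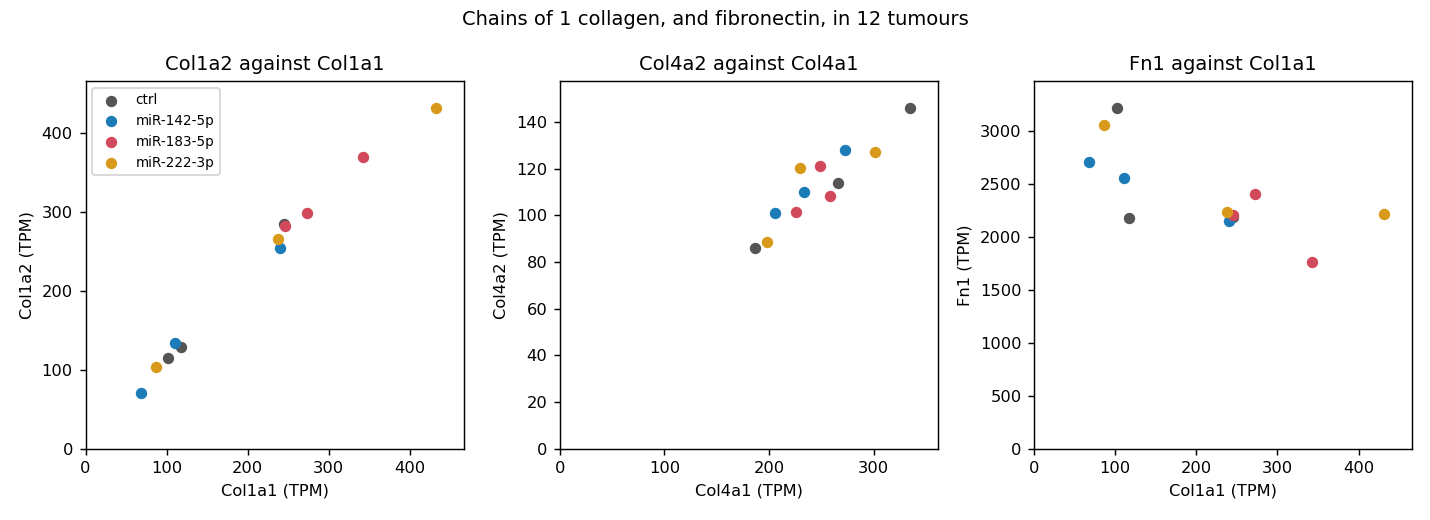
TPM of Col1a2 against Col1a1, of Col4a2 against Col4a1 and of Fn1 against Col1a1, 1 point per tumour and 1 colour per group; all axes are linear and start at 0. The chains of collagen I and of collagen IV lie near straight lines, with ratios of 0.826 to 1.0003 and 1.91 to 2.38, while the ratio of Fn1 to Col1a1 spans 5.13 to 39.9. Fn1 counts all its transcripts, of which a retained intron is the most abundant.

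Collagen VI, a beaded filament near cell surfaces, was led by Col6a1, with 53.6, 79.4 and 80.3 TPM in ctrl, 69.3, 61.4 and 86.2 TPM with miR-142-5p, 70.2, 63.4 and 94.1 TPM with miR-183-5p and 76.7, 65.5 and 95.4 TPM with miR-222-3p. The range of Col6a1 was 1.78-fold, narrower than that of Col6a2 (3.39-fold) and Col6a3 (6.21-fold). For Col6a3 this counts all transcripts, and its protein-coding ones ranged from 9.05 to 35.4 TPM. The ratio of Col6a1 to Col6a2 moved from 1.75 in miR-222-3p tumour 3 to 3.83 in miR-142-5p tumour 2. Of the collagens on fibril surfaces, Col12a1 ranged from 37.8 to 155 TPM and Col16a1 from 125 to 167 TPM. Col14a1 measured 4.67, 5.61 and 6.33 TPM in ctrl, 6.996, 7.07 and 7.59 TPM with miR-142-5p, 5.63, 4.41 and 4.65 TPM with miR-183-5p and 5.80, 5.88 and 5.42 TPM with miR-222-3p. Here the miR-142-5p group held the 3 highest values of all 12, and miR-142-5p tumour 2, the lowest for most other members, was among them.

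The elastic fibre genes encode elastin (Eln), the microfibril proteins Fbn1 and Mfap5, and the fibulins. Fbln2 measured 237, 373 and 222 TPM in ctrl, 293, 158 and 227 TPM with miR-142-5p, 366, 386 and 419.9 TPM with miR-183-5p and 199.8, 309.8 and 459 TPM with miR-222-3p. Mfap5 ranged from 9.04 to 53.5 TPM, Fbn1 from 3.12 to 14.3 TPM and Fbln1 from 0.900 to 5.38 TPM. Eln differed from these, since its lowest value, 2.69 TPM, was in miR-183-5p tumour 3 and its highest, 10.8 TPM, in miR-142-5p tumour 3. These values count all transcripts of Eln. Its protein-coding transcripts held 26.7% to 75.3% of them and ranged from 0.845 to 6.17 TPM, so this order of tumours may not be theirs.

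Of the glycoproteins, Fn1, a cell-adhesive protein of matrix and plasma, measured 2176, 2183 and 3211 TPM in ctrl, 2146, 2707 and 2556 TPM with miR-142-5p, 2405, 2204 and 1762 TPM with miR-183-5p and 3049, 2228 and 2215 TPM with miR-222-3p. It was highest in ctrl tumour 3 and lowest in miR-183-5p tumour 3. These values count all transcripts of Fn1. Its protein-coding transcripts held 11.3% to 44.9% of them and ranged from 246 to 1441 TPM, so this order of tumours may not be theirs. Sparc measured 625, 747 and 657 TPM in ctrl, 821, 534 and 606 TPM with miR-142-5p, 859.8, 827 and 969 TPM with miR-183-5p and 663, 851 and 1120.4 TPM with miR-222-3p, with each miR-183-5p tumour above each ctrl tumour. Tnc (tenascin C) ranged from 31.5 to 197 TPM, Postn (periostin) from 95.9 to 293 TPM, Thbs2 from 24.3 to 99.5 TPM and Ctgf (Ccn2 in the annotation) from 45.1 to 133 TPM. These 4 were lowest in miR-142-5p tumour 2. Thbs1 (thrombospondin 1) was lowest in ctrl tumour 1 and highest in ctrl tumour 3, at 54.2 and 118 TPM.

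Among proteoglycans, Bgn (biglycan) was the highest, with 118, 202 and 96.6 TPM in ctrl, 223, 75.3 and 122 TPM with miR-142-5p, 227, 244 and 278 TPM with miR-183-5p and 85.4, 263 and 318 TPM with miR-222-3p. Dcn (decorin), its close relative, which binds collagen fibrils, measured 12.99, 18.7 and 18.3 TPM in ctrl, 17.7, 15.5 and 26.99 TPM with miR-142-5p, 21.2, 22.01 and 25.7 TPM with miR-183-5p and 23.7, 22.3 and 26.4 TPM with miR-222-3p. For Dcn, the ctrl tumours were all below the tumours given miR-222-3p or miR-183-5p, and they overlapped with the miR-142-5p tumours. The ratio of Bgn to Dcn ran from 3.61 to 12.6. Lum (lumican) ranged from 5.001 to 11.96 TPM and Vcan from 2.33 to 8.61 TPM.

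Of the processing enzymes, Lox showed the widest range, with 11.1, 21.9 and 8.94 TPM in ctrl, 19.04, 4.65 and 8.15 TPM with miR-142-5p, 25.3, 25.5 and 37.2 TPM with miR-183-5p and 5.94, 18.6 and 31.7 TPM with miR-222-3p. The 3 miR-183-5p tumours were above all ctrl and all miR-142-5p tumours. Serpinh1, in the same list, measured 366, 437 and 385 TPM in ctrl, 402, 359.6 and 379.7 TPM with miR-142-5p, 437, 435 and 471 TPM with miR-183-5p and 326, 391 and 495 TPM with miR-222-3p. Loxl1 ranged from 3.21 to 17.3 TPM, Loxl2 from 7.14 to 27.5 TPM and Loxl3 from 40.7 to 63.8 TPM. Pcolce stayed between 335 and 430.4 TPM.

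Tagln (transgelin), an actin-binding protein of contractile cells, was the highest gene of the cell list, with 57.8, 85.7 and 51.7 TPM in ctrl, 130.3, 31.7 and 40.7 TPM with miR-142-5p, 152, 116 and 153 TPM with miR-183-5p and 36.7, 77.4 and 161 TPM with miR-222-3p. Acta2, which marks myofibroblasts and smooth muscle, measured 42.2, 70.95 and 35.2 TPM in ctrl, 80.8, 18.6 and 25.8 TPM with miR-142-5p, 89.2, 68.6 and 126 TPM with miR-183-5p and 25.99, 53.9 and 119.6 TPM with miR-222-3p. Both genes were lowest in miR-142-5p tumour 2 and had miR-183-5p values above all ctrl values in normalised counts. In TPM, miR-183-5p tumour 2 was below ctrl tumour 2 for Acta2. The growth factor receptor genes diverged. Pdgfra measured 12.01, 10.8 and 25.7 TPM in ctrl, 9.51, 18.1 and 23.7 TPM with miR-142-5p, 18.7, 12.8 and 11.6 TPM with miR-183-5p and 25.2, 12.6 and 13.6 TPM with miR-222-3p, with its highest values in ctrl tumour 3, miR-222-3p tumour 1 and miR-142-5p tumour 3, which were low for collagen I. Pdgfrb ranged from 8.58 to 22.8 TPM and Fap from 2.48 to 8.31 TPM, both lowest in miR-142-5p tumour 2 and highest in miR-222-3p tumour 3.

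**Figure D3:**
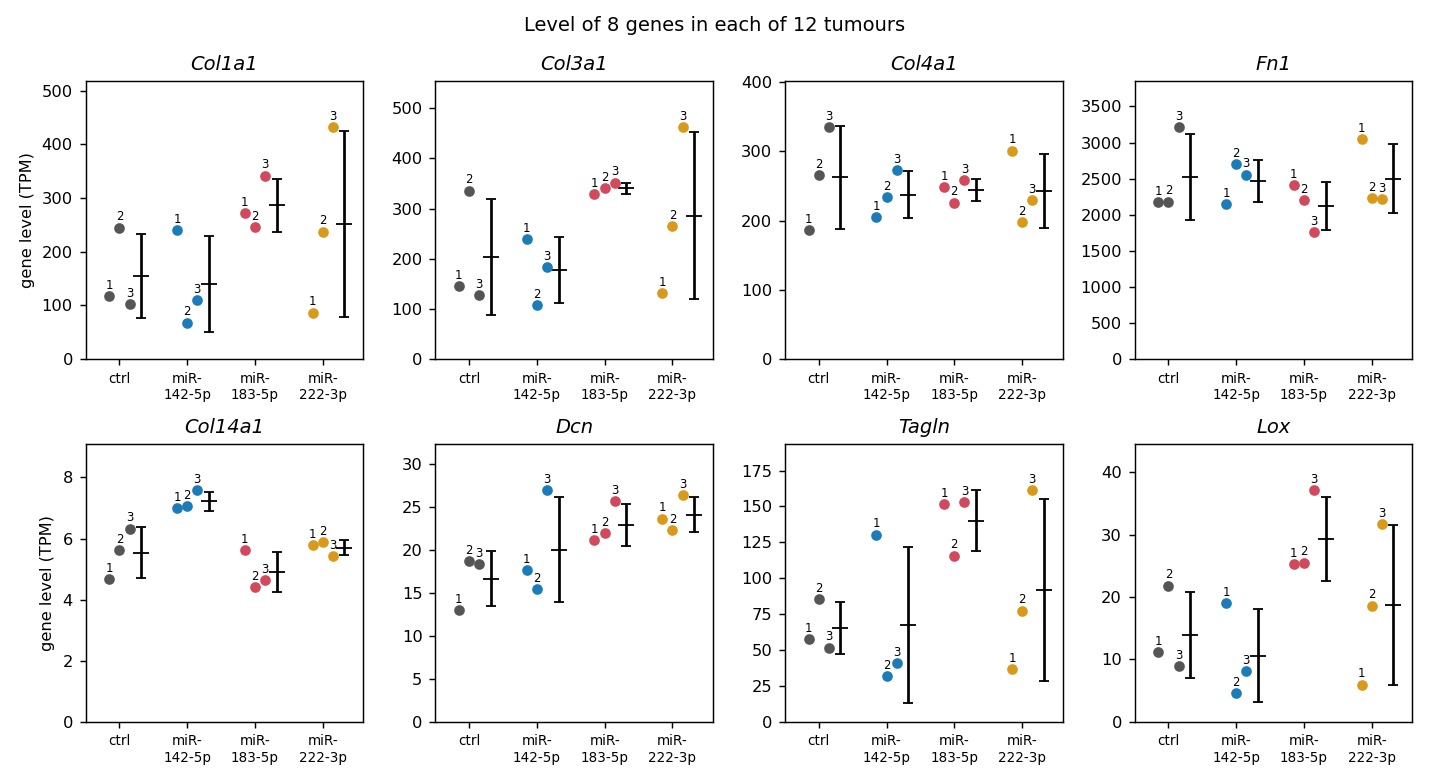
TPM of 8 genes in each tumour (points, labelled with the tumour number), with the mean ± SD of the 3 tumours of a group (black bars); axes are linear, start at 0 and differ between panels. Col1a1 and Col3a1 spread less among the miR-183-5p tumours than in the other 3 groups, and Col14a1 is highest in the 3 miR-142-5p tumours.

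Groups were then compared to ask whether a loaded miRNA changed these genes. Tests were fitted over all genes with DESeq2, with the 12 libraries in 1 fit, and p-values were adjusted over all genes. The 3 contrasts share the ctrl tumours. In the miR-183-5p tumours most members had higher averages than in ctrl, but no member passed an adjusted p of 0.05 (0 of 45, against 0% of all genes). By edgeR and by limma, 0 members passed as well. At an unadjusted p under 0.05, DESeq2 gave 1 of 45 members, against 3.22% of all genes. The log2 fold change was above 0 for 38 of 45 members, with a median of 0.50, against a median of -0.01 and 47.3% above 0 for all genes.

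The groups did not overlap in normalised counts for 18 of 45 members between miR-183-5p and ctrl, against 9.17% of all genes, and these 18 were all higher in miR-183-5p. They were Col1a1, Col1a2, Col8a1, Col6a3, Col12a1, Fbln2, Mfap5, Sparc, Ctgf, Dcn, Bgn, Serpinh1, Lox, Loxl1, Loxl2, Fap, Acta2 and Tagln. In TPM, 10 of 45 did not overlap, against 8.14% of all genes, and all 10 were among the 18. Col1a2, Col8a1, Col6a3, Fbln2, Serpinh1, Loxl2, Fap and Acta2 overlapped on that scale, so the count depends on how the libraries are scaled. The members vary together between tumours and are not separate observations. Without miR-183-5p tumour 3, 19 members did not overlap, against 15.2% of all genes, and the median log2 fold change was 0.42. Without ctrl tumour 2, the ctrl tumour with high collagen, 34 members did not overlap, against 23.5% of all genes.

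Dcn had the lowest p in this contrast, at 607 ± 67.2 against 429.8 ± 56.2 (SD, n = 3 each) normalised counts and a log2 fold change of 0.50 (SE 0.20, unadjusted p = 0.0114, adjusted p = 0.9998). Sparc averaged 29824 ± 2449.9 against 22422 ± 1855 (SD, n = 3 each) and had a log2 fold change of 0.41 (SE 0.23, unadjusted p = 0.0714, adjusted p = 0.9998). For Col5a1 the value was 0.50 (SE 0.28, unadjusted p = 0.0734, adjusted p = 0.9998), and for Fbln1 it was 1.001 (SE 0.58, unadjusted p = 0.0853, adjusted p = 0.9998). Tagln averaged 2711 ± 370.1 against 1241 ± 337 (SD, n = 3 each), with a log2 fold change of 1.13 (SE 0.66, unadjusted p = 0.0861, adjusted p = 0.9998). For Vcan the value was 0.72 (SE 0.42, unadjusted p = 0.0887, adjusted p = 0.9998). In a fit of these 2 groups alone, Tagln had an adjusted p of 0.000288 and Lox one of 0.0463, so that 2 of 45 members were called there, against 0.249% of all genes. Col1a1 had a log2 fold change of 0.91 with an SE of 0.66.

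By role, the median log2 fold change against ctrl in miR-183-5p was 0.69 for the 7 fibrillar collagens, which were all above 0, and 0.06 for the 5 basement membrane and network collagens. It was 0.52 for collagen VI, -0.02 for the fibril-associated collagens, 0.56 for elastic fibre genes and 0.45 for glycoproteins. It was 0.61 for proteoglycans, 0.42 for processing enzymes and 0.47 for fibroblast and mural genes. The 7 members below 0 were Fn1, Col14a1, Pdgfra, Eln, Col4a1, Col4a2 and Col16a1, and none passed the test.

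In the miR-222-3p tumours, 0 of 45 members passed the adjusted threshold by DESeq2, against 0.0324% of all genes, and 0 by edgeR or limma. At an unadjusted p under 0.05 the count was 1 of 45, against 2.3%. The fold change was above 0 for 39 members, with a median of 0.33 (all genes -0.01). This average rests on miR-222-3p tumour 3, since without it the median of the members was 0.01. The groups did not overlap for 1 of 45 members, against 5.5% of all genes. That member was Dcn, at 627 ± 82.8 against 429.8 ± 56.2 (SD, n = 3 each) normalised counts and a log2 fold change of 0.54 (SE 0.20, unadjusted p = 0.00540, adjusted p = 0.99996). The next lowest p-values were those of Col18a1, at -0.30 (SE 0.16, unadjusted p = 0.0541, adjusted p = 0.99996), and Fbln1, at 1.02 (SE 0.58, unadjusted p = 0.0803, adjusted p = 0.99996). Pdgfrb followed at 0.47 (SE 0.27, unadjusted p = 0.0818, adjusted p = 0.99996). Sparc had 0.39 (SE 0.23, unadjusted p = 0.0889, adjusted p = 0.99996) and Vcan 0.63 (SE 0.42, unadjusted p = 0.134, adjusted p = 0.99996).

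In the miR-142-5p tumours, 0 of 45 members passed by DESeq2, against 0.00649% of all genes, and 0 by edgeR or limma. At an unadjusted p under 0.05 the count was 1 of 45, against 3.56%. The fold change was above 0 for 13 members, with a median of -0.07. The groups did not overlap for 1 of 45 members, against 6.07% of all genes, and again this was the member with an unadjusted p under 0.05. It was Col14a1, at 505 ± 14.8 against 382 ± 30.7 (SD, n = 3 each) normalised counts and a log2 fold change of 0.40 (SE 0.13, unadjusted p = 0.00211, adjusted p = 0.685). Dcn had 0.28 (SE 0.20, unadjusted p = 0.160, adjusted p = 1) and Col11a1, with few reads, -1.05 (SE 0.79, unadjusted p = 0.184, adjusted p = 1). Col5a3 had -0.56 (SE 0.56, unadjusted p = 0.323, adjusted p = 1), which turned to 0.084 without ctrl tumour 2. Fbln2 had -0.27 (SE 0.31, unadjusted p = 0.381, adjusted p = 1) and Col6a3 -0.40 (SE 0.51, unadjusted p = 0.432, adjusted p = 1).

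**Figure D4:**
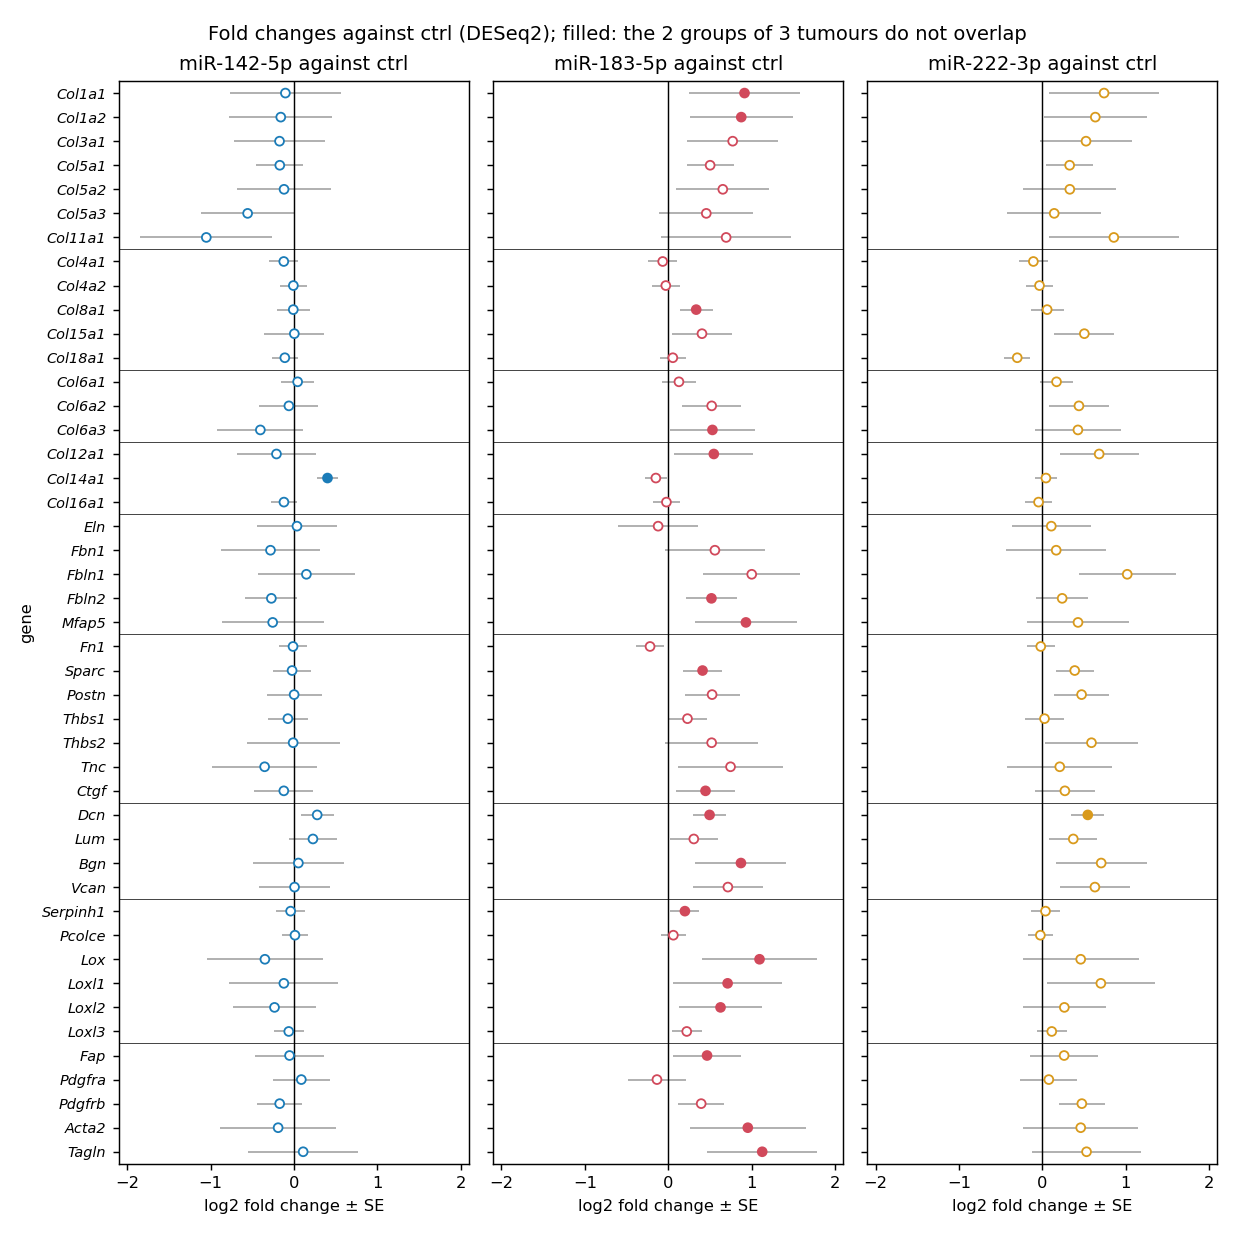
Log2 fold change ± SE (DESeq2) of each of the 45 genes against ctrl for the 3 miRNA groups, with filled points where the 3 tumours of a group do not overlap the 3 ctrl tumours in normalised counts. Filled points number 18 for miR-183-5p, 1 for miR-142-5p (Col14a1) and 1 for miR-222-3p (Dcn).

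The miRNA groups were also set against each other, in contrasts that share tumours with those above. Between miR-183-5p and miR-142-5p, Col14a1 was the 1 member called (1 of 45, against 0.0519% of all genes). Its mean was 345 ± 38.96 against 505 ± 14.8 (SD, n = 3 each) normalised counts, lower in miR-183-5p in 3 of 3 tumours, with a log2 fold change of -0.55 (SE 0.13, unadjusted p = 2.41e-05, adjusted p = 0.0464). The call held in 5 of 15 alternative fits, in which the adjusted p lay between 0.0230 and 0.848, and edgeR and limma each called 0 members. At an unadjusted p under 0.05 there were 6 members, against 7.95% of all genes, and 16 members did not overlap, against 12.3%. Of these 16, the other 15 were higher in miR-183-5p, and in TPM the count was 19, against 11.2%. Fbln2 averaged 16699.9 ± 1303 against 9650.2 ± 3303 (SD, n = 3 each), with a log2 fold change of 0.79 (SE 0.31, unadjusted p = 0.0110, adjusted p = 0.411), and Col5a1 had 0.67 (SE 0.28, unadjusted p = 0.0163, adjusted p = 0.450). The median over the members was 0.57, and 40 of 45 were above 0. This contrast turns on miR-142-5p tumour 1, without which 11 members were called, against 2.69% of all genes, and 38 did not overlap, against 33.9%. The 11 then called included Ctgf, Col12a1, Mfap5, Loxl2 and Lox, all higher in miR-183-5p, and Col14a1, lower.

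Between miR-183-5p and miR-222-3p, 0 of 45 members were called by DESeq2, edgeR or limma, against 0.0389% of all genes by DESeq2. The unadjusted p was under 0.05 for 1 member, against 3.24%, and 1 did not overlap, against 9.06%. In both cases it was Col18a1, at 11376 ± 1451 against 8887 ± 1124 (SD, n = 3 each) and a log2 fold change of 0.36 (SE 0.16, unadjusted p = 0.0226, adjusted p = 0.9996). Col14a1 had -0.19 (SE 0.13, unadjusted p = 0.143, adjusted p = 0.9996) and Col8a1 0.28 (SE 0.20, unadjusted p = 0.163, adjusted p = 0.9996). Between miR-142-5p and miR-222-3p, 0 of 45 were called by any of the 3 tools, against 0.0454% of all genes by DESeq2. The unadjusted p was under 0.05 for 3, against 3.6%, and 1 did not overlap, against 6.2%. Col14a1 was that member, at 0.36 (SE 0.13, unadjusted p = 0.00572, adjusted p = 0.916), followed by Col11a1 at -1.91 (SE 0.78, unadjusted p = 0.0141, adjusted p = 0.9999) and Pdgfrb at -0.65 (SE 0.27, unadjusted p = 0.0175, adjusted p = 0.9999). In a likelihood ratio test for any difference between the 4 groups, 0 of 45 members passed, against 0.0584% of all genes, and 2 had an unadjusted p under 0.05, against 4.73%. These were Col14a1 and Dcn, with an adjusted p of 0.121 and 0.846 by DESeq2.

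Other genes of the pathway were counted in the same fit. Of 25 tested genes for collagen modification and secretion (26 listed), 19 were above 0 in miR-183-5p against ctrl, with a median of 0.14, and none passed the test in any contrast against ctrl. The lowest p-values were those of Fkbp14, a prolyl isomerase of the endoplasmic reticulum, at 0.42 (SE 0.17, unadjusted p = 0.0143, adjusted p = 0.9998), and P3h3, of the prolyl 3-hydroxylase family, at 0.38 (SE 0.18, unadjusted p = 0.0319, adjusted p = 0.9998). Of the remaining collagen genes, 17 of 26 were tested and none passed. Col8a2, the partner of Col8a1, averaged 35.9 ± 16.04 against 8.22 ± 6.41 (SD, n = 3 each) normalised counts in miR-222-3p against ctrl, at 2.25 (SE 0.87, unadjusted p = 0.00948, adjusted p = 0.99996). Col11a2 had -0.59 (SE 0.23, unadjusted p = 0.0102, adjusted p = 0.9998) in miR-183-5p against ctrl. All 15 laminin and linker genes were tested, with a median of -0.04 in miR-183-5p against ctrl, and none passed. Lama1, the laminin α1 chain, had 1.36 (SE 0.49, unadjusted p = 0.00534, adjusted p = 0.9998) in miR-183-5p against ctrl. Lama4, the α4 chain, had 0.50 (SE 0.24, unadjusted p = 0.0383, adjusted p = 0.99996) in miR-222-3p against ctrl. Of the 10 collagen receptors none passed. Itga11, a collagen-binding integrin of fibroblasts, averaged 27.99 ± 5.19 against 9.43 ± 4.47 (SD, n = 3 each) in miR-183-5p against ctrl, at 1.56 (SE 0.58, unadjusted p = 0.00682, adjusted p = 0.9998), and Itga2 had -0.58 (SE 0.30, unadjusted p = 0.0522, adjusted p = 1) in miR-142-5p against ctrl.

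Marker lists were summed to see which cell types moved with the collagens. The 10 fibroblast markers summed to 142, 177 and 125 TPM in ctrl, 198, 111 and 161 TPM with miR-142-5p, 204, 208 and 215 TPM with miR-183-5p and 125, 224 and 274 TPM with miR-222-3p. In this sum, the miR-183-5p tumours were all above the ctrl tumours. Its lowest and highest tumours were those of the fibrillar collagens, miR-142-5p tumour 2 and miR-222-3p tumour 3. Of the 9 tested, 9 had a log2 fold change above 0 against ctrl in miR-183-5p, 9 in miR-222-3p and 6 in miR-142-5p, and none passed the test. In miR-142-5p against ctrl, the median of these markers was 0.08, while the 7 fibrillar collagens were all below 0, with a median of -0.17. Among the fibroblast markers, Thy1 was the most abundant, at 86.6 TPM in miR-142-5p tumour 2 to 179 TPM in miR-222-3p tumour 3, and it made up most of each sum. Lrrc15, a marker of cancer-associated fibroblasts, ranged from 5.20 TPM to 36.2 TPM in the same tumours. Pdpn, Cdh11, Prrx1 and Mfap4 were also lowest in miR-142-5p tumour 2. Other fibroblast markers did not share this order. Twist2 was lowest in miR-183-5p tumour 3 (1.25 TPM), Dpt highest in miR-142-5p tumour 3 (4.71 TPM) and Pi16 highest in miR-142-5p tumour 1 (4.40 TPM). The pericyte and smooth muscle markers summed to 82.7 to 129.6 TPM in ctrl and 86.3 to 126 TPM in miR-183-5p. The highest of these, miR-183-5p tumour 3, held 38.4 TPM of Des, which skeletal muscle also expresses, and without Des the ranges were 81.6 to 128 TPM and 84.4 to 100.1 TPM. The sum of the pericyte and smooth muscle markers did not share the order of Acta2 and Tagln, as miR-142-5p tumour 2, lowest for both, had 114 TPM. Most of that sum was Mcam (70.5 TPM) and Rgs5 (21.2 TPM). The list was split, since Cspg4 was lowest in miR-142-5p tumour 2 (1.69 TPM) and highest in miR-222-3p tumour 3 (5.40 TPM).

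Macrophage markers ran from 1740.0 to 2200.0 TPM in ctrl, 1868 to 2737 TPM in miR-142-5p, 1147 to 1733 TPM in miR-183-5p and 1545 to 2304 TPM in miR-222-3p. miR-142-5p tumour 2, with the lowest fibrillar collagens, had the highest macrophage markers, and miR-183-5p tumour 3 the lowest. Neutrophil markers ran from 1052 to 2015 TPM in ctrl and from 1881 to 3045 TPM in miR-183-5p. Endothelial markers ran from 129 to 200.2 TPM in ctrl and from 126 to 157 TPM in miR-183-5p, and carcinoma markers from 2353 to 2754 TPM and from 2626 to 2879 TPM. Without Lcn2, which neutrophils also express, the carcinoma markers ran from 1826 to 2550 TPM in ctrl and from 1887 to 2305 TPM in miR-183-5p. Adipocyte markers reached 27.1 TPM in ctrl and 36.1 TPM in miR-183-5p, and skin keratinocyte markers 37.0 and 27.7 TPM, of which Krt1 was at 0 in all 12 tumours. Most of these adipocyte sums was Cfd (22.7 TPM in ctrl tumour 2, 28.4 TPM in miR-183-5p tumour 3). Most of these keratinocyte sums was Krt14 (32.0 TPM in ctrl tumour 2, 22.3 TPM in miR-183-5p tumour 1), and 3 of the 8 keratinocyte markers passed the count filter. Whether the share of any of these cells bears on the levels of the collagens was not tested.

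**Figure D5:**
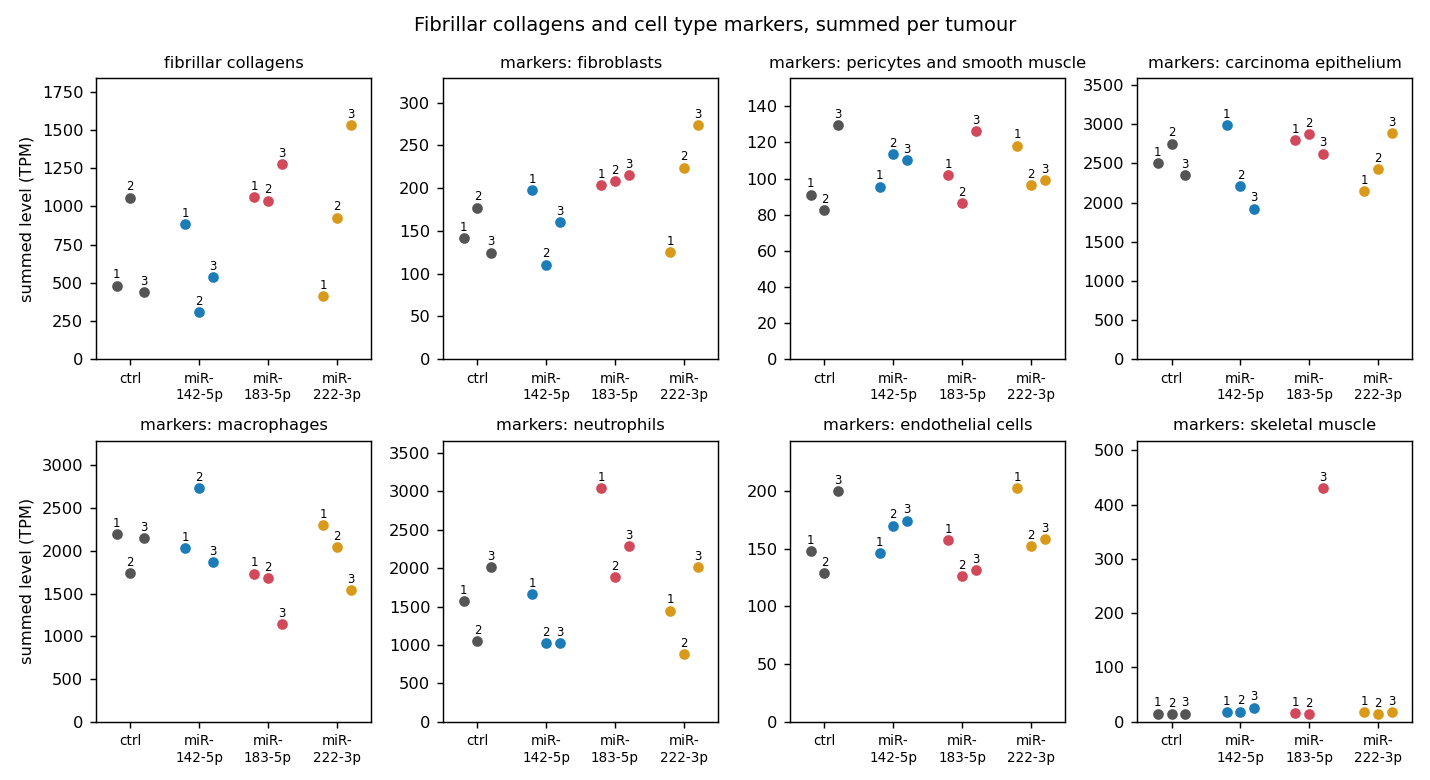
Summed TPM of the 7 fibrillar collagens and of 7 lists of cell type markers in each tumour (points, labelled with the tumour number), by group; axes are linear, start at 0 and differ between panels. The sum of the fibroblast markers, most of it Thy1, shares its lowest and highest tumour with the fibrillar collagens. The skeletal muscle markers stand at 431 TPM in miR-183-5p tumour 3 alone.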

How the data were processed

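Each of the 12 tumours gave 1 paired-end stranded mRNA library. Per the file headers, the authors deposited, for each transcript, Salmon's estimated count of reads and its TPM, with no pooling of tumours. The annotation release named in the methods is not that of the tables, and 116710 of 118783 transcripts matched GENCODE annotation of GRCm38 (35944 genes). The deposited TPM and counts were summed to genes. Counts were rounded and tested with DESeq2 1.42.0 (R 4.3.3), with average transcript length as offset, all 12 libraries in 1 fit, a minimum of 10 reads in 3 or more libraries, and Benjamini-Hochberg adjustment over all genes (threshold 0.05). Normalised counts are those of this fit. Libraries held 20285968 to 27021401 estimated reads, and values carry the spread between tumours. edgeR 4.0.16, limma 3.58.1 on log2(TPM + 1) and other settings were alternatives. The steps were tested on simulated data.

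The members and lists were chosen with earlier results of these data known. In each contrast with ctrl, statistics are given for the members with an unadjusted p under 0.05 or, where there were fewer than 6, for the 6 of lowest p. Between miRNA groups the 3 of lowest p are given, and in the other pathway lists the 2 of lowest p over the contrasts with ctrl. Levels name the 5 highest and 5 lowest members, the 3 widest and 3 narrowest spreads and the highest of each role, and other members named were chosen after their values were seen. Seeds and promoters came from RefSeq (GRCm38.p6). A planned count of repeats in collagen proteins was not made.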

Additional observations from a re-analysis of the deposited data

Results flagged for a closer look

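Col14a1, a collagen on fibril surfaces, differed between miR-183-5p and miR-142-5p tumours, with 345 ± 38.96 against 505 ± 14.8 normalised counts (SD, n = 3 each) and a log2 fold change of -0.55 (SE 0.13, adjusted p = 0.0464 by DESeq2), lower in 3 of 3 miR-183-5p tumours. The adjusted p lay between 0.0230 and 0.848 over the 15 alternatives, and edgeR and limma did not call it.

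The skeletal muscle markers, which are not among the members, summed to 431 TPM in miR-183-5p tumour 3, more than 10 times the highest ctrl tumour (15.1 TPM). In miR-183-5p against ctrl, 5 of 5 tested markers had a log2 fold change above 0, with a median of 3.84, none passed the test by DESeq2 and 3 had an unadjusted p under 0.05. Without this tumour, the members had a median log2 fold change of 0.42 against ctrl in place of 0.50, and 19 members in place of 18 did not overlap.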

How the results depend on the processing

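The median log2 fold change of the members kept its direction against ctrl in miR-183-5p (0.36 to 0.76 with 1 tumour left out) and in miR-222-3p (0.01 to 0.67), but not in miR-142-5p (-0.36 to 0.10). It was 0.33 to 0.90 between miR-183-5p and miR-142-5p, -0.08 to 0.47 between miR-183-5p and miR-222-3p, and -0.79 to -0.10 between miR-142-5p and miR-222-3p. In miR-183-5p against ctrl, 2 members (Tagln, Lox) were called in place of 0 with only the 2 groups in the fit (0.249% of all genes). Between miR-183-5p and miR-142-5p tumours, 0 were called in place of 1 by edgeR, by limma, without a count filter and without the length offset, and 3 (Col3a1, Col5a3, Fbln2) with only the 2 groups (0.471% of all genes). With 1 tumour left out, that count ran from 0 to 11 (2.69% of all genes at 11). It was 0 to 1 in miR-142-5p against ctrl (Ctgf), 0 to 2 in miR-142-5p against miR-222-3p (Ctgf, Col12a1) and 0 to 2 for any difference, highest each time without miR-142-5p tumour 1. Col5a3 in miR-142-5p against ctrl ran from -0.83 to 0.084 with 1 tumour left out, turning without ctrl tumour 2. The cause was not tested.

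The alternatives for members whose groups did not overlap were chosen after seeing the data. In TPM, 10 members in place of 18 did not overlap in miR-183-5p against ctrl (8.14% of all genes). These members numbered 1 to 12 with 1 tumour left out in miR-142-5p against ctrl, 18 to 34 in miR-183-5p against ctrl, 1 to 14 in miR-222-3p against ctrl, 16 to 38 between miR-183-5p and miR-142-5p, 1 to 21 in miR-183-5p against miR-222-3p and 1 to 15 in miR-142-5p against miR-222-3p. At these highest counts, 17.0%, 23.5%, 18.5%, 33.9%, 24.5% and 21.7% of all genes did not overlap, in the same order. With the most abundant transcript of each gene alone, the members held a median of 4763 TPM per tumour in place of 7218. Deviations of tumours from their group mean had a mean r of -0.05 over 18 same-numbered pairs and 0.02 over 36 pairs of different numbers. Centring each group of 3 on its own mean ties these averages to each other. They therefore cannot tell whether same-numbered tumours shared a cage or a day. With the replicate number as a block, 0 members in place of 1 were called between miR-142-5p and miR-183-5p tumours. Few reads limit Col11a1, Fbln1 and Fap.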
